A study of Mus musculus with 6 samples.

Results

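The platelet glycoproteins and granule chemokines were a set of 10 genes named for their known roles, Pf4, Ppbp, Gp1ba, Gp1bb, Gp9, Gp5, Gp6, Itga2b, Itgb3 and Treml1, and every probe with 1 of these symbols in the platform annotation was taken. That gave 10 probes for 8 genes among 25697 probes for 16593 named genes. Gp1ba, the von Willebrand factor binding chain, and Gp6, the collagen receptor, had no probe under their symbols and are not analysed here. Spleen RNA had been hybridised to 6 Illumina MouseRef-8 v2 arrays, 3 from mice labelled Rag2/pfp KO and 3 labelled wild type. The Rag2 product is part of the V(D)J recombinase and Prf1, here under its earlier symbol pfp, encodes perforin, so the knockout lacks a gene needed to make T and B cells and a gene of cytotoxic granules. The labels give no strain, age, sex or allele for either group and do not state that each array holds a different mouse, so the p-values speak only to the spread among these arrays, part of which may be technical.

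Platelets adhere to injured vessel walls and release stored chemokines through a small set of genes that are active in the megakaryocyte, their parent cell. In mice megakaryocytes are found in the spleen as well as in the bone marrow, and the red pulp of the spleen stores platelets. Among the glycoproteins, GPIb-IX-V binds von Willebrand factor, glycoprotein VI binds collagen, and integrin αIIbβ3 binds fibrinogen. The chemokines of the Pf4 and Ppbp genes are held in α-granules, and TLT-1, encoded by Treml1, sits in the membrane of those granules until the platelet is activated. These are statements of background and not results of the arrays.

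Between 12084 and 13149 probes were detected per array, and having only 3 arrays in each group limits the precision. All 8 tested B cell genes and 7 of 8 tested T cell genes fell in the knockout, beside a background of 2.88% of genes called lower. Several of them passed the detection filter only through the wild-type arrays, and with detection required on all 6 arrays the calls were 3 B cell and 2 T cell genes. Knockout replicate 2 stood apart from the other 5 arrays in sex-linked transcripts. Xist was undetected there, at 4.88 and 5.13 log2 on its probes, and was detected on the other 5 arrays. Eif2s3y, a gene of the Y chromosome, was detected on knockout replicate 2 alone, at 8.30 log2. By these transcripts, sex differed within the knockout group and not within wild type, as only knockout replicate 2 read as male. Without this array the differences of the 9 tested probes ran from 0.05 to 1.05 log2, and their lowest limma adjusted p, that of Gp9, was 0.0877.

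Promoter sequence is shown for 4 of the measured genes to set the pair of granule chemokines, which lie next to each other on chromosome 5, beside a pair of GPIb-IX-V chains. Each is the stretch of 250 bases before the annotated start, 5′ to 3′ on the gene's own strand, from RefSeq on GRCm38.p6. The array files name no genome build. Capitals mark GATAA or its reverse complement TTATC, letters contained in the recognition sequence of the megakaryocyte and erythroid factor GATA1. The windows are Pf4 at chr5:90772185-90772434 (plus strand), Ppbp at chr5:90768268-90768517 (plus strand), Gp9 at chr6:87777820-87778069 (plus strand) and Gp5 at chr16:30310782-30311031 (minus strand).
Pf4: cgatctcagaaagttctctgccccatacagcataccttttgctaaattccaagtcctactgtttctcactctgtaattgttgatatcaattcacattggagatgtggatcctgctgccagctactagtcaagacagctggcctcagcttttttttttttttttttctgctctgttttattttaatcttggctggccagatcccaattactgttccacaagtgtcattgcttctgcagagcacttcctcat
Ppbp: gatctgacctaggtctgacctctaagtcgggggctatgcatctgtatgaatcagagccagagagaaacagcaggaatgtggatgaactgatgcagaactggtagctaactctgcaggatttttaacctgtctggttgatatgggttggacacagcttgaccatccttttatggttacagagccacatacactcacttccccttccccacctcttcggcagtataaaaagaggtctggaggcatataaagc
Gp9: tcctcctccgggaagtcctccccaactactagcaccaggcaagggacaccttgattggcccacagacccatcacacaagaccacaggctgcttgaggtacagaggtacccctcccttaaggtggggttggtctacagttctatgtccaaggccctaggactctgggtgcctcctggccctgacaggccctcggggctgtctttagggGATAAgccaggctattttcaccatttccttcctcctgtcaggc
Gp5: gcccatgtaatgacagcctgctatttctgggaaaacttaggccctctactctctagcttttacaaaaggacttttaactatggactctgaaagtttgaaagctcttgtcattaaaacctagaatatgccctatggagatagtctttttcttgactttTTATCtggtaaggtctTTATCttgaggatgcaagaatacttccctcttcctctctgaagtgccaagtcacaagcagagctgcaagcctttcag

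The GATAA letters occurred once before Gp9, 43 to 39 bases upstream of the start, and 2 times before Gp5, 93 to 89 and 77 to 73 bases upstream. Neither chemokine window held them, nor did the windows of Gp1bb, Itga2b and Treml1, which are not shown. Of the 9 set genes with a promoter entry, 4 held GATAA on either strand, against 22.6% of all 32851 promoter windows of that length, and the other 2 were Gp1ba and Gp6. The letters GGAAG on either strand, contained in many binding sequences of ETS factors such as Fli1, occurred in 8 of the 9 windows, against 64.1% of all windows. No GATAA match overlapped a GGAAG match in these genes. A match is only a description of the letters in the window. Other spellings of these binding sequences were not searched, so a window without a match may still hold one.

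Every detected probe of the set read higher on average in the knockout spleen, by 0.46 to 1.0 on the log2 scale, yet no probe passed the test across all probes. Of the 9 probes tested, 0 were called by limma at a Benjamini-Hochberg adjusted p under 0.05, against 3.92% of all 12885 tested probes, or 0.978% called higher. At an unadjusted p under 0.05, 5 of the 9 were higher, against 8.88% of all probes. Every knockout array lay above every wild-type array for 4 of the 9, against 12.4% of all probes. All 9 differences were above 0, as were 52.9% of all. The set was chosen with earlier results of these data known, so these shares are descriptions only. All 9 probes were detected on all 6 arrays, so the detection filter did not favour probes high in 1 group. With 1 probe per gene, the median difference over the 7 tested genes was 0.82 log2, beside 0.03 over all 9158 genes tested. In whole-tissue RNA, more megakaryocytes or platelets, more RNA per cell and a larger RNA share where lymphoid RNA is lower cannot be told apart.

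**Figure D1:**
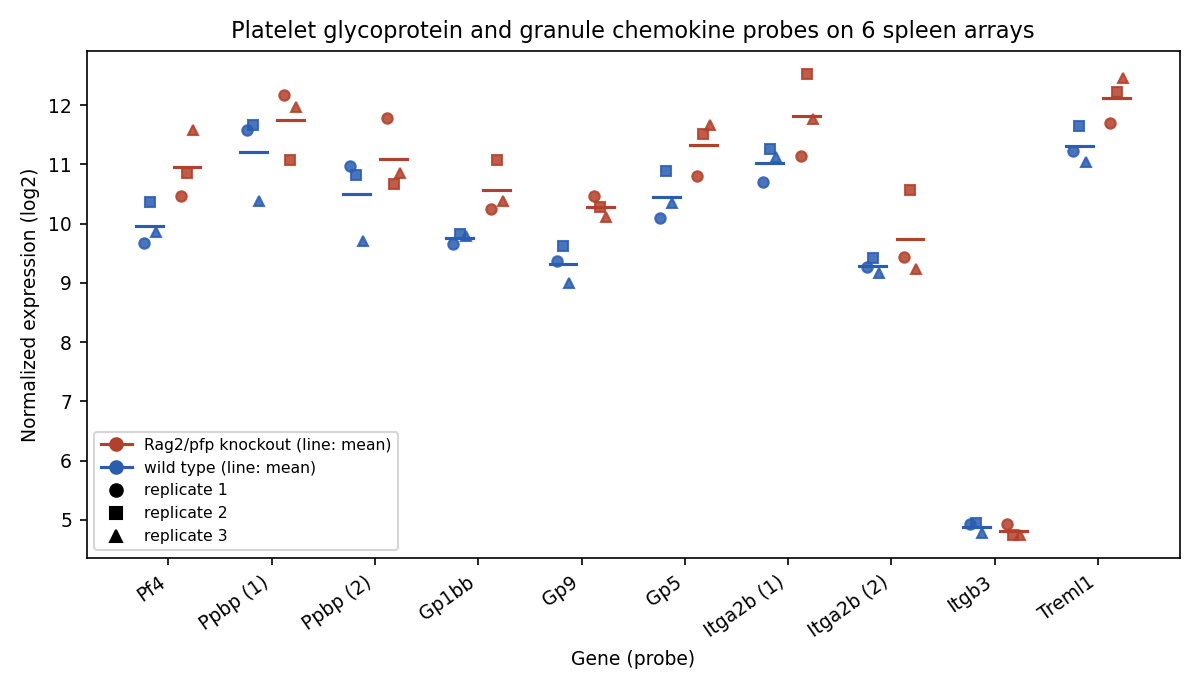
Normalized log2 expression (vertical axis) of each probe of the set on the 6 arrays; symbols are arrays, colours the groups and lines the group means. Gp9 and Gp1bb show the widest gaps between groups, Ppbp overlaps, and Itgb3 lies at background on all arrays, near 4.8 log2.

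Among the granule chemokines, Pf4, which encodes the heparin-binding chemokine platelet factor 4, read 10.46, 10.86 and 11.58 log2 in knockout replicates 1 to 3 and 9.67, 10.37 and 9.86 in wild-type replicates 1 to 3. The lowest knockout array lay only 0.09 above the highest wild-type array. The difference was 1.0 ± 0.33 log2 (SE, n = 3 per group, limma), 2-fold, with a 95% interval of 0.25 to 1.75 and adjusted p = 0.141. The raw signal, before any scaling, was 1699, 1490 and 2744 in the knockout and 1131, 1597 and 1032 in wild type, so the groups overlapped before normalization. In the authors' deposited log2 values, which carry no background correction, the difference was 0.93.

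Ppbp encodes pro-platelet basic protein, the precursor of a neutrophil-attracting chemokine. Its brighter probe read 12.18, 11.07 and 11.97 log2 in knockout replicates 1 to 3 and 11.57, 11.66 and 10.39 in wild-type replicates 1 to 3. Knockout replicate 2 lay below wild-type replicates 1 and 2, and wild-type replicate 3 stood more than 1 log2 unit under the others of its group. The difference was 0.53 ± 0.41 log2 (SE), with a 95% interval from -0.39 to 1.46 (limma adjusted p = 0.569). Without wild-type replicate 3 it was 0.12.

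The second Ppbp probe read 11.78, 10.67 and 10.85 log2 in the knockout and 10.97, 10.83 and 9.71 in wild type, replicates 1 to 3 each. Its difference was 0.59 ± 0.41 log2 (SE, limma adjusted p = 0.512), and 0.20 without wild-type replicate 3. Both probes put knockout replicate 1 highest and wild-type replicate 3 lowest, and over the 6 arrays they correlated at r = 0.91. They differed most on knockout replicate 3, by 1.13 log2 against 0.40 to 0.83 on the other arrays. Although Ppbp and Pf4 are neighbouring genes, their values over the 6 arrays correlated at only r = 0.42, which is a description over arrays that include both groups.

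GPIb-IX-V is the platelet receptor for von Willebrand factor. Its 3 measured chains read higher in the knockout by 0.81 to 0.96 log2, and none was called in the limma test. Gp9 encodes glycoprotein IX, which holds the complex at the surface. It read 10.47, 10.27 and 10.10 log2 in knockout replicates 1 to 3 and 9.36, 9.62 and 9.0 in wild-type replicates 1 to 3, and the groups were separated by 0.49. The difference was 0.96 ± 0.25 log2 (SE), 1.94-fold, with a 95% interval of 0.39 to 1.52 and adjusted p = 0.0721 in limma, the lowest of the set. In the authors' deposited log2 values Gp9 differed by 0.84 ± 0.17, and the same limma test called it at adjusted p = 0.0492. It was also called with median centring, at adjusted p = 0.0491, and with quantile normalization lacking a background correction, which is the same calculation as the authors' values. Raw Gp9 signal averaged 1243 in the knockout and 859 in wild type, and the groups overlapped, since wild-type replicate 2 read 1003 and knockout replicate 3 read 999.

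Gp1bb encodes the β chain of GPIb, which is disulphide-linked to the ligand-binding α chain. It read 10.25, 11.07 and 10.38 log2 in knockout replicates 1 to 3, against 9.65, 9.83 and 9.79 in wild type. The wild-type arrays lay close together, and the lowest knockout array was 0.42 above them. The difference was 0.81 ± 0.27 log2 (SE), 1.75-fold, with a 95% interval of 0.20 to 1.42 (limma adjusted p = 0.145). Without knockout replicate 2, the highest array, it was 0.56. Raw Gp1bb signal was 1473, 1738 and 1196 in the knockout and 1119, 1143 and 992 in wild type. The groups did not overlap there either.

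Gp5 encodes glycoprotein V, the chain of the complex that thrombin cleaves. It read 10.81, 11.51 and 11.66 log2 in knockout replicates 1 to 3 and 10.09, 10.89 and 10.36 in wild-type replicates 1 to 3. Wild-type replicate 2 lay 0.09 above knockout replicate 1, so the groups overlapped. The difference was 0.88 ± 0.31 log2 (SE), 1.84-fold, with a 95% interval of 0.17 to 1.59 (limma adjusted p = 0.173).

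Integrin αIIbβ3 is assembled from the products of Itga2b and Itgb3, and only the α chain was detected. Itga2b, which encodes αIIb, or CD41, read on its brighter probe 11.14, 12.53 and 11.77 log2 in knockout replicates 1 to 3 and 10.70, 11.26 and 11.12 in wild-type replicates 1 to 3. Knockout replicate 1 lay within the wild-type range. The difference was 0.79 ± 0.36 log2 (SE), with a 95% interval from -0.02 to 1.59 (limma adjusted p = 0.286). It was 0.43 without knockout replicate 2 and 1.12 without knockout replicate 1.

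The second Itga2b probe read 9.44, 10.56 and 9.23 log2 in the knockout and 9.27, 9.43 and 9.17 in wild type. Here knockout replicate 3 lay among the wild-type arrays and replicate 1 just above them, and the difference of 0.46 ± 0.35 log2 (SE, limma adjusted p = 0.565) became 0.05 without knockout replicate 2. The Itga2b probes correlated at r = 0.82 over the 6 arrays.

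Itgb3, which encodes the β3 chain that αIIb needs to reach the surface, was not detected on any array. Its probe had detection p-values of 0.298, 0.699 and 0.697 in the knockout and 0.276, 0.247 and 0.613 in wild type, at 4.74 to 4.94 log2. No difference can be read from it. An undetected probe gives only a bound and does not show that the transcript was missing. Whether this probe lies in a part of the transcript that the labelling reaches was not tested.

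Treml1 encodes TLT-1, a receptor of the TREM family that moves from the granule membrane to the platelet surface. It read 11.70, 12.22 and 12.46 log2 in knockout replicates 1 to 3 and 11.23, 11.64 and 11.04 in wild-type replicates 1 to 3. The groups did not overlap, but knockout replicate 1 exceeded wild-type replicate 2 by only 0.05. The difference was 0.82 ± 0.28 log2 (SE), 1.77-fold, with a 95% interval of 0.18 to 1.46 (limma adjusted p = 0.158). Raw Treml1 signal was 4076, 3792 and 5047 in the knockout and 2940, 3551 and 2166 in wild type. The groups did not overlap there either.

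**Figure D2:**
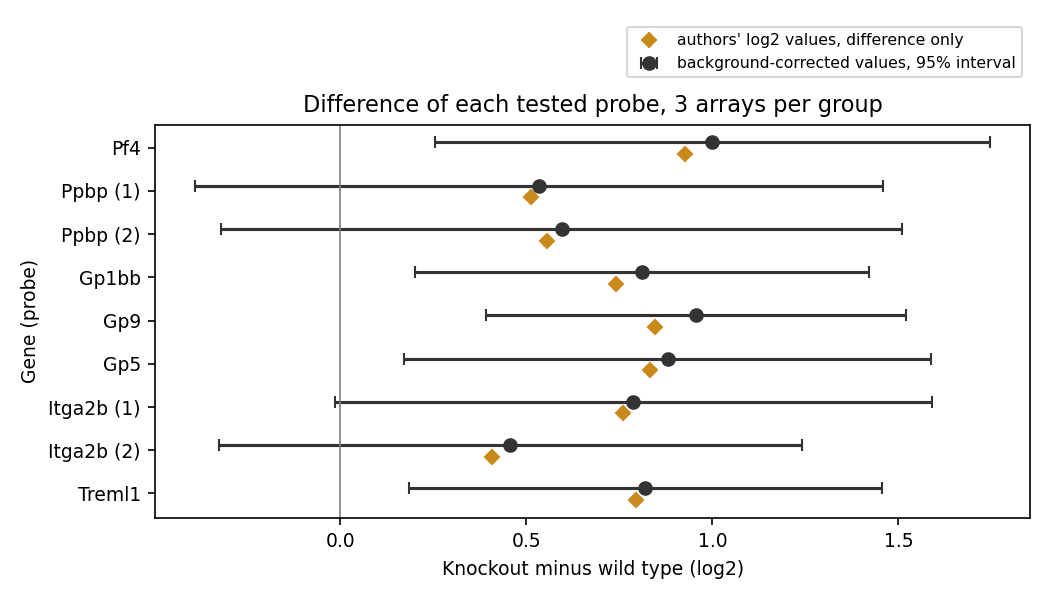
Knockout minus wild type (log2, horizontal axis) of the 9 tested probes with the 95% interval of the limma fit, and the same difference in the authors' log2 values. All 9 points lie above 0, and the intervals of both Ppbp and both Itga2b probes include 0.

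The arrays ranked differently for different genes of the set. Among knockout arrays, replicate 1 was highest for 3 probes (both of Ppbp and Gp9), replicate 2 for 3 (both of Itga2b and Gp1bb) and replicate 3 for 3 (Pf4, Gp5 and Treml1). Knockout replicate 1 was lowest of its group for 5 of the 9 probes. Wild-type replicate 2 was highest of its group for 8 of the 9. The 21 pairs among the 7 genes had a median correlation of r = 0.72 over the 6 arrays, from -0.11 for Ppbp with Itga2b to 0.96 for Gp5 with Treml1. Pf4 followed Gp5 and Treml1 at r = 0.96 each, and Itga2b followed Gp1bb at r = 0.94. These correlations span both groups and share the scaling of the arrays, and they are given as descriptions. Genes chosen by the likeness of their values to the mean of the 7 over the 6 arrays were Psmd6 (r = 0.99), Vps37a (0.99), Hs2st1 (0.99), Alox12 (0.98) and Olfr135 (0.98). Alox12 encodes the platelet 12-lipoxygenase.

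Other genes were listed by role, in 7 lists of platelet and megakaryocyte genes and 1 list of other CXC chemokines, which are not particular to platelets. In these 8 lists, 87 genes were tested, and 1 was called higher and 0 lower, beside 3.92% of all genes called in either direction and 1.04% of all genes called higher. Of the 87, 47 were above 0, and their median difference was 0.04 log2. The lists hold many genes shared with other blood cells.

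Among 16 other tested genes listed as receptors of platelets, 12 were above 0 and 0 were called, with a median of 0.35 log2. The list was not restricted to receptors known on mouse platelets, so the spleen value of F2r need not come from platelets. The brightest by mean were F2r, encoding the thrombin receptor PAR1, at 0.01 ± 0.27 log2 (SE), and Esam at 0.35 ± 0.28. Esam is an adhesion molecule of platelets and endothelium. F2rl2, a further thrombin receptor gene named afterwards, differed by 0.63 ± 0.33 (limma adjusted p = 0.379). The ADP receptor gene P2ry1, the ATP-gated channel gene P2rx1, Mpig6b, which encodes an inhibitory receptor of megakaryocytes, and F2rl3, which encodes the thrombin receptor PAR4, are named after their values were seen. They differed by 0.70 ± 0.26, 0.92 ± 0.36, 0.85 ± 0.32 and 0.75 ± 0.32 log2 in that order, and none was called (limma adjusted p from 0.196 to 0.262). They are among the highest of the list. At its other end, Tbxa2r, the thromboxane receptor gene, differed by -0.46 ± 0.33, Pear1 by -0.23 ± 0.31, Itgav by -0.17 ± 0.27 and Cd9 by -0.09 ± 0.26. P2ry12 was detected on 2 arrays and was not tested.

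Granule cargo did not share 1 direction. Of 10 tested genes, 5 were above 0, and the median was 0.06 log2. Vwf, which encodes von Willebrand factor in platelets and endothelium, differed by 0.61 ± 0.29 log2 (SE, limma adjusted p = 0.319), and Clu, which encodes clusterin, by -1.05 ± 0.41 (adjusted p = 0.209). Genes of granule formation and release had a median of -0.11 log2 over 14, with Stxbp2, a regulator of membrane fusion, at -0.48 ± 0.29 and Vamp3 at 0.09 ± 0.21. Receptor signalling and integrin activation had 3 of 16 above 0 and a median of -0.21 log2. Fcer1g, the signalling chain used by glycoprotein VI, differed by -0.17 ± 0.24, and Rap1b, a small GTPase that activates αIIbβ3, by -0.15 ± 0.22. None of the genes in these 3 lists was called.

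Transcription factors of the megakaryocyte held the only call in the 8 lists. Gfi1b, a repressor needed by both megakaryocytes and red cell precursors, rose by 1.29 ± 0.26 log2 (SE, limma adjusted p = 0.0273). That call was lost when any 1 wild-type array was left out, and also when the arrays were not normalized to each other, with adjusted p up to 0.171. The cofactor gene Zfpm1 differed by 0.81 ± 0.23 (adjusted p = 0.0934) and Ldb1 by 0.11 ± 0.24, and the median over 15 was 0.15 log2. Of 3 further factors named after their values were seen, Fli1, the ETS factor, differed by -0.87 ± 0.30 (adjusted p = 0.165), Gata1 by 1.08 ± 0.46 (adjusted p = 0.258) and Tal1 by 1.07 ± 0.28 (adjusted p = 0.0740). All 3 also act in other blood cells.

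In the cytoskeleton list the median was 0.02 log2 over 7, with Myh9, the platelet myosin, at -0.29 ± 0.28 log2 (SE) and Actn1 at 0.06 ± 0.28. Tubb1, the β1 tubulin of platelets, was detected on 1 array and was not tested. The 3 tested eicosanoid enzymes were all above 0, with a median of 0.64 log2. Of these, Alox12 differed by 0.73 ± 0.27 (limma adjusted p = 0.183) and Mgll by 0.64 ± 0.30. Chemokines of the CXC family other than Pf4 and Ppbp had a median of 0.03 log2 over 6. The stromal Cxcl12 differed by 0.04 ± 0.31 and Cxcl16 by 0.02 ± 0.46. Cxcl13, the B cell attracting chemokine, named after its values were seen, differed by -1.57 ± 0.40 (adjusted p = 0.0685) with no overlap between the groups, and the list held 1 call in 5 of the 17 alternatives. The Cxcl5 probe, picked out afterwards, was detected on 0 arrays. None of the genes in these 3 lists was called.

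**Figure D3:**
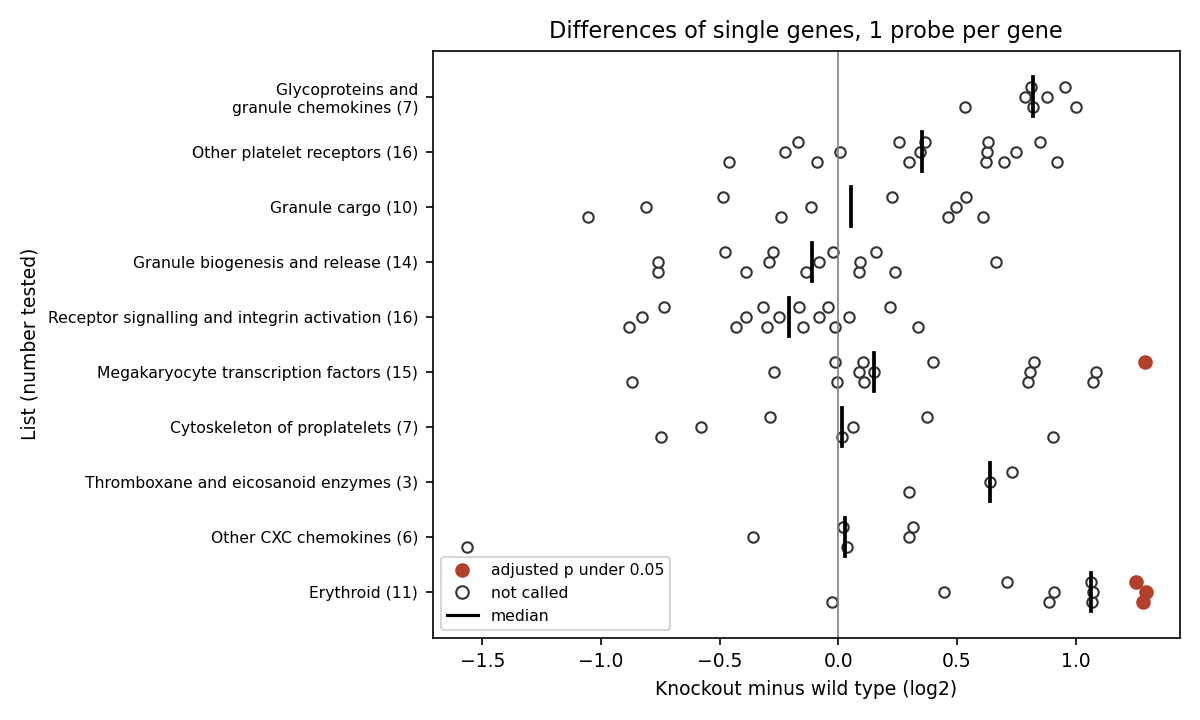
Knockout minus wild type (log2, horizontal axis) of each tested gene, 1 probe per gene. Rows are the set, the 8 lists by role and the erythroid list. Bars are medians and filled points passed the test. The set spans 0.53 to 1.0 with no filled point. The lists by role spread to both sides of 0, except the eicosanoid enzymes, where all 3 tested genes lie above 0. Gfi1b, in the list of megakaryocyte transcription factors, and 3 erythroid genes are filled.

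Other cells of the spleen share some of these genes, so their markers were set beside the set on each array. Relative to the wild-type mean, the 7 genes averaged 0.57, 0.93 and 0.99 log2 on the knockout arrays, replicates 1 to 3, against -0.11, 0.32 and -0.21 in wild type. Wild-type replicate 2 was the highest of its group, and the erythroid list spread less over the wild-type arrays, from -0.03 to 0.04. Erythroid genes averaged 1.31, 0.69 and 0.72 on knockout replicates 1 to 3. They were highest on knockout replicate 1, the array with the lowest mean of the platelet set in its group. The part of red cell precursors in the result was not tested.

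Of 11 tested erythroid genes, 10 were above 0, the median was 1.06 log2, and 3 rose, beside 1.04% of all genes called higher. These were Ank1, red cell ankyrin, by 1.30 ± 0.28 log2 (SE, limma adjusted p = 0.0372), the factor gene Klf1, by 1.28 ± 0.24 (adjusted p = 0.0214), and the erythropoietin receptor gene Epor, by 1.25 ± 0.29 (adjusted p = 0.0474). All 3 calls were lost without any single wild-type array and when the arrays were not normalized to each other. Over the 17 alternatives Ank1 lost its call in 6, Klf1 in 4 and Epor in 9, and the highest adjusted p under any alternative was 0.195, 0.135 and 0.211 in that order. The Ank1 call rests on its probe of highest mean, and the values of its 3 other tested probes are not given here. Whether the erythroid genes and the platelet genes differ in their shift was not tested.

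Endothelial genes, which include sources of Vwf and Esam, averaged -0.58, 0.26 and 0.03 log2 on knockout replicates 1 to 3, and 0 of 12 were called. Plvap differed by -0.21 ± 0.36 log2 (SE) and Egfl7 by 0.06 ± 0.33. Macrophage genes averaged -0.46, 0.14 and -0.23, with 0 of 10 called, Slc40a1 at 0.01 ± 0.29 and Vcam1 at -0.27 ± 0.33. On mast cell and basophil genes, cells that can carry Itgb3, the averages were -0.85, -0.45 and -0.22, with 0 of 4 called, Hdc at -0.98 ± 0.42 and Prss34 at -0.08 ± 0.27. Stem and progenitor genes averaged -0.12, 0.52 and 0.49, with 0 of 3 called, Mecom at 0.43 ± 0.23 and Cd34, at 0.34 ± 0.33. These counts stand beside 3.92% of all genes called in either direction. In lists this short, 0 calls do not show that the genes were unchanged. The part of these cells in the result was not tested.

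Lymphoid and neutrophil genes went the other way. Of the genes named for the B and T cell lists, Fcmr, Cd3e and Cd6 were detected on 3 arrays only, so their knockout values of 5.0, 5.01 and 5.19 log2 lie at background and their differences are bounds. Blk, detected on all 6 arrays, fell by 5.41 ± 0.32 log2 (SE), Cd3g differed by -5.33 ± 0.23 and passed the test, and Cd79a was undetected on 1 array. Of 10 neutrophil genes 6 fell, all 10 being detected on all 6 arrays, beside the 2.88% of all genes called lower. That count was 2 and 3 without wild-type replicates 1 and 2, 3 without the filter on detection, and between 2 and 8 over the 17 alternatives. Ctsg, at -2.39 ± 0.33 log2 (SE), and Lcn2, at -2.25 ± 0.34, were called under each alternative. Ngp differed by -2.33 ± 0.36 and lost its call when wild-type replicate 1 was left out, and when undetected probes were kept. The part of the lower lymphoid and neutrophil RNA in the result was not tested.

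**Figure D4:**
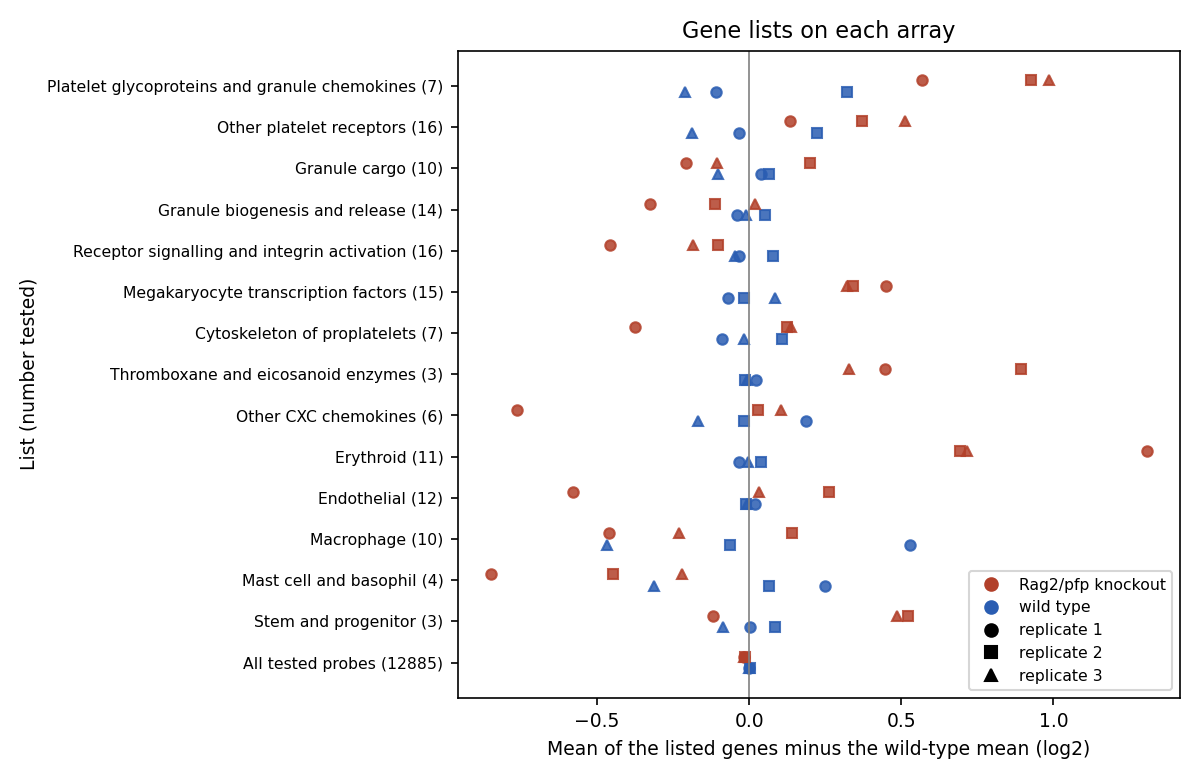
Mean of each gene list on each array relative to the wild-type mean (log2, horizontal axis), with the number of tested genes in brackets; B cell, T cell and neutrophil lists lie far to the left and are left out. The platelet set lies at 0.57 to 0.99 on the knockout arrays and at -0.21 to 0.32 on the wild-type arrays, and knockout replicate 1 is lowest for it and highest for the erythroid list.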

How the data were processed

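Signal intensity of each probe was deposited by the authors as linear values without normalization, each with a detection p-value, per the file headers. Per the submitters' processing notes the software was GenomeStudio 2011.1. No other setting is stated there. The log2 values that the authors deposited in a second table equalled quantile-normalized log2 signal to within 5e-07, with no background correction and no centring of genes, and each column's median was 7.24.

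Intensities were background-corrected from the detection p-values, offset by 16, quantile-normalized and log-transformed with neqc (limma 3.58.1, R 4.3.3). The offset makes log2 differences of dim probes too small, and quantile normalization removes a shift shared by most probes. Probes with detection p under 0.05 on at least 3 of 6 arrays were tested, 12885 in all, with lmFit and eBayes, two-sided, group as the only term and Benjamini-Hochberg adjustment over all of them. The test was checked on simulated data. A gene was read from its tested probe with the highest mean. For genes of the lists, the values of other tested probes are not given.

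Symbols came from the platform annotation, in which 23978 probes had 1 symbol and 1719 are unnamed here. Of these, 23962 matched a RefSeq gene number (GRCm38.p6). Promoter windows were cut to the bases before the start and searched on both strands. Samples were grouped by title. Same-numbered arrays of both groups deviated together at r = 0.50, -0.28 and -0.04 (replicates 1 to 3). With 3 arrays per group these values cannot settle whether the numbers pair the samples, and the main test did not pair them. The submitters' own sample names carry separate numbers, which match between the groups only for replicate 1.

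The set and the lists were chosen with earlier results of these data known. Every probe of the set is named. From each list up to 3 called genes with the largest difference are named, or, with fewer than 2 calls, the 2 of highest mean level. The 5 genes most correlated with the mean of the set are also named. Alternatives were 5 other normalizations or value tables, 3 detection filters, an intensity trend, array weights, the replicate block and each array left out.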

Additional observations from a re-analysis of the deposited data

How the results depend on the processing

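Over 17 alternatives all 9 tested probes of the set kept differences above 0, from 0.05 for the second Itga2b probe to 1.25 for Pf4. The count of called probes of the set was 1, Gp9, with the authors' log2 values, with quantile normalization lacking background correction and with median centring, and 0 under the other alternatives. The median over the 7 genes was 0.59 log2 without normalization between arrays and 1.05 with median centring, where all probes had medians of -0.33 and 0.13. Relative to those medians it was 0.92 under both, beside 0.79 in the main setting. Both values of 0.92 must be equal, because median centring only shifts each array by a constant. With 1 array left out, the median over the 7 genes itself ranged from 0.71 to 1.03. Calls over all probes numbered 505 (126 higher, 379 lower), 873 without normalization between arrays (16 higher, 857 lower), 596 with median centring (234 higher, 362 lower), 323 with detection on all 6 arrays and 790 with array weights. They ranged from 168 to 684 with 1 array left out, and were 168, 172 and 186 without wild-type replicates 1, 2 and 3. Called genes of the 8 lists by role numbered 1, but 2 without normalization between arrays. They numbered 3 with the authors' values, with quantile normalization lacking background correction and with array weights. With median centring they numbered 4, with an intensity trend 5, and with 1 array left out 0 to 3. The cause of these moves was not tested. Whether the replicate numbers pair the samples was not settled. With the replicate block, 887 probes, 0 of the set and 3 list genes were called. Knockout replicate 1 correlated best with wild-type replicate 1, and knockout replicates 2 and 3 with wild-type replicates 3 and 2. With 3 arrays per group the 95% interval of a tested probe of the set was 0.56 log2 or more to each side, and Itgb3, near background, gave no value.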

Other observations

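Platelet genes listed by role but outside the set were not all measurable in these spleens. Cd36, which encodes a scavenger receptor, and Pla2g4a, which encodes a phospholipase that frees arachidonic acid, were detected on 0 arrays. Tubb1 was detected on 1 array and P2ry12, the ADP receptor gene, on 2 arrays. Srgn, which encodes the proteoglycan of storage granules, had a mean of 7.23 ± 0.37 log2 on the 3 knockout arrays against 8.04 ± 0.36 on the 3 wild-type arrays (SD), a difference of -0.81 ± 0.29 (SE, limma adjusted p = 0.169), while Nfe2, a factor of platelet formation, read 13.33 ± 0.29 and 12.54 ± 0.10, a difference of 0.80 ± 0.24 (adjusted p = 0.107). Both were named after their values were seen.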
